A study of Mus musculus with 10 samples.

Results

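The genes described here are 34 mouse genes that mark T cells, natural killer (NK) cells, B cells and plasma cells, followed in fat of obese mice. They were listed by name and role, with earlier results of these arrays known, and 32 of the 34 were measured, out of 17097 genes with a single symbol on the array. Il7r, the interleukin-7 receptor, and Mzb1, a chaperone of plasma cells, have no probe set paired with them alone in the annotation used. The tissue was white fat from the epididymal depot, which lies beside the testis, and all mice were males of C57/Bl6 background. All mice were given a diet with 45% of its energy from fat for 16 weeks, from an age of 8 to 12 weeks, and no mice on a lean diet are among these samples. The groups were wild-type mice (WT, n = 4), ASC-/- mice (n = 3), which lack the inflammasome adaptor ASC encoded by Pycard, and Casp1-/- mice (n = 3), which lack the protease caspase-1. The genotype field of the ASC-/- samples reads "ASC1 null". Both are null in the whole animal, so their lymphocytes lack the gene too. The labels do not say whether the WT mice were littermates, and they describe 1 array per mouse from separate mice. By its title the series concerns the inflammasome in obesity.

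As background, T cells recognise antigen through a receptor whose CD3 chains and CD247 (the zeta chain) carry the signal inward, with CD4 or CD8 as co-receptor and the kinase ZAP-70 as the next step. B cells recognise antigen through an immunoglobulin held by CD79A and CD79B, and BLNK links that receptor to its downstream enzymes, while CD22 and CD72 restrain it. NK cells and cytotoxic T cells kill with granzymes, and plasma cells secrete antibody with the J chain. Fat of obese mice holds all of these cells beside many more macrophages, and several of the genes, Cd72 and Blnk among them, are also used by myeloid cells.

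All values are log2 signals from whole tissue made with RMA, which forces 1 distribution onto all arrays, so fewer cells of a type and less RNA per cell cannot be told apart. The targeted genes checked the labels. Pycard lay between 3.20 and 3.71 on the ASC-/- arrays and between 9.10 and 10.57 on the WT arrays, and Casp1 lay between 4.69 and 4.98 on the Casp1-/- arrays and between 8.71 and 9.99 on the WT arrays. The mean of 7 adipocyte markers lay between 10.85 and 11.92 on every array. The mean of 7 epididymis markers lay between 3.43 and 5.35, with the highest value on Casp1-/- replicate 2. Next came WT replicate 1 (4.85) and WT replicate 2 (4.76). One of the markers, Adam7, chosen after its values were seen, read 8.31 on Casp1-/- replicate 2, 6.20 on WT replicate 2 and 5.17 on Casp1-/- replicate 3. Without Casp1-/- replicate 2, 0 of the 32 lymphocyte genes passed between Casp1-/- and WT, as given below. Calls over all genes fell as well, from 1397 to 64 of 17097. The part of epididymal RNA in the differences was not tested. The poly-A spike-in controls, RNA added by the laboratory before labelling, fell into 2 levels: means of 7.51 to 8.07 on the 3 Casp1-/- arrays and WT replicate 1, and of 5.76 to 6.5 on the other 6 arrays. The labels give no batch. With the spike-in level as a block, WT replicate 1 alone carries the comparison of Casp1-/- with WT, and values with this block are given below. The arrays correlated with each other at 0.957 to 0.995.

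Most lymphocyte genes were dim in this tissue. A gene was counted as above background on an array where its signal exceeded the highest of 23 control probe sets that match no mouse RNA, a level of 4.58 to 5.01. Of the 32 measured genes, 8 were above it on all 10 arrays, 6 on some and 18 on none, while 53.4% of all genes were above it on all arrays and 35.9% on none. The 8 were Thy1, a surface protein of T cells that stromal cells also carry, Cd2, an adhesion receptor of T and NK cells, Gzma (granzyme A), Jchain (the J chain), and the B cell genes Cd22, Tnfrsf13b, Blnk and Cd72. No chain of the T cell receptor complex was above background throughout. Cd3d and Cd247 were above it on 4 arrays each, Cd3e on 2, and Cd3g, Cd4, Cd8a and Cd8b1 on none. The same holds for the kinase Zap70, the co-stimulatory receptors Cd28 and Icos, the regulatory T cell factor Foxp3, granzyme B (Gzmb), the NK receptor Ncr1, the B cell receptor chain Cd79a and the B cell factor Pax5. One control probe set lay far above the others. Against the second-highest control instead (3.49 to 3.71), a choice made after the values were seen, 19 genes were above on all arrays, 11 on some, and 2 (Ncr1 and Pax5) on none. A gene below the highest control is therefore described by its level, and no fold is given where a group mean lies at or under 5.01.

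**Figure D1:**
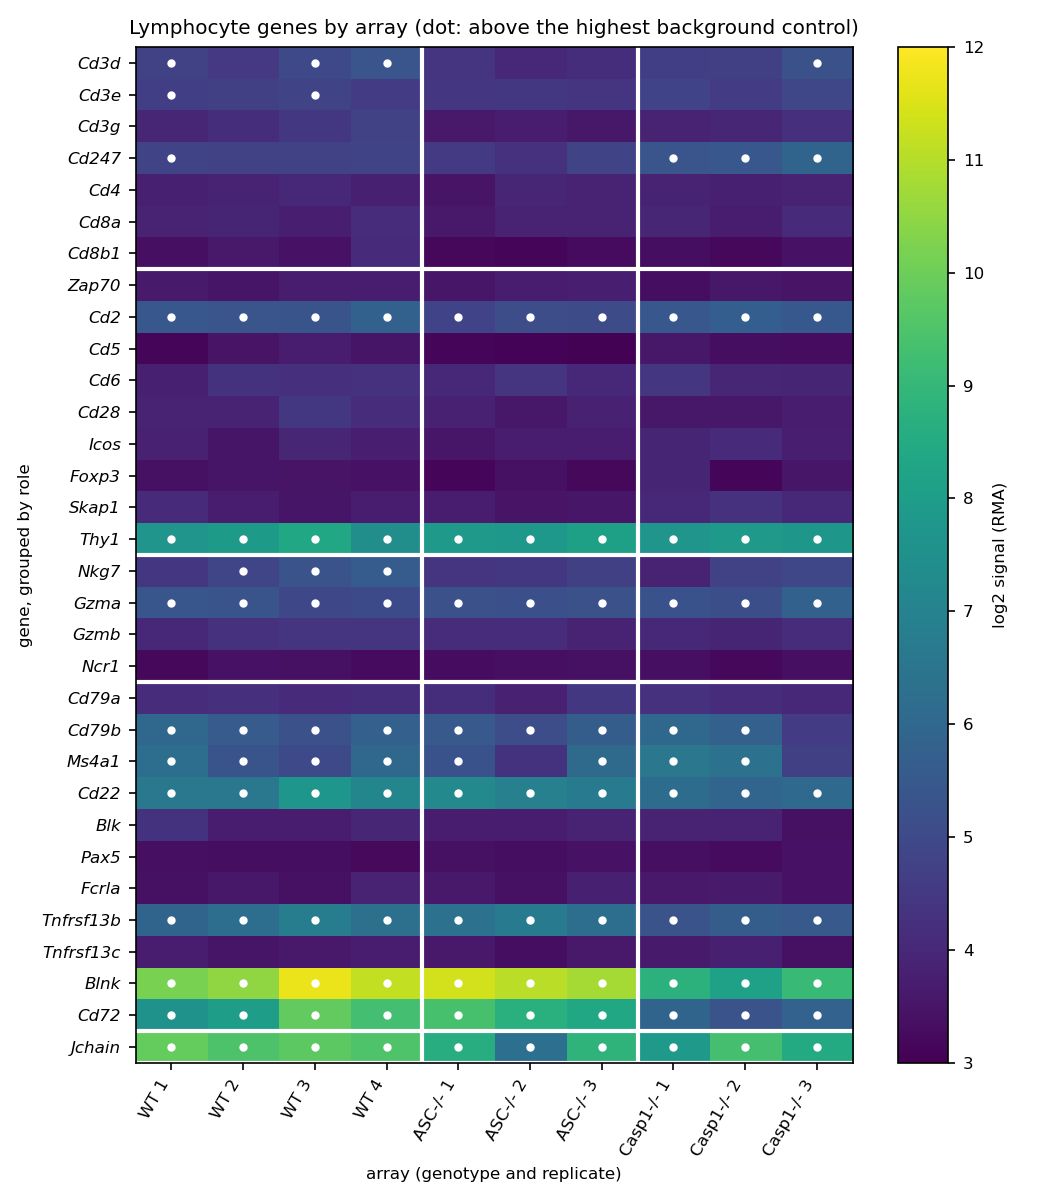
Log2 signal of the 32 measured lymphocyte genes (rows, by role) on the 10 arrays (columns, by genotype), with a white dot where the signal exceeds the highest background control of that array. Dots fill the row of 8 genes, and 18 genes have none.

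In Casp1-/- fat, 3 B cell genes were lower than in WT and 1 T cell receptor chain was higher, of 32 measured. Cd72 was 8.07-fold lower, Blnk 4.64-fold lower and Tnfrsf13b 1.78-fold lower, and Cd247 was higher by 0.79 on the log2 scale. The remaining 28 did not pass an adjusted p of 0.05 (limma, Benjamini-Hochberg over all genes). The 4 genes are 12.5% of those measured, beside 8.17% of all genes past the same threshold in either direction. The median difference of the 32 was -0.04, beside 0.04 over all genes, and 22 of the 32 lay below 0, beside 42.7% of all genes.

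Cd72 encodes a B cell surface protein that restrains the B cell receptor and also occurs on macrophages. Its signal on the WT arrays was 7.59, 8.00, 9.85 and 9.31, on the ASC-/- arrays 9.38, 8.70 and 8.40, and on the Casp1-/- arrays 5.90, 5.29 and 5.84. Every Casp1-/- array lay below every array of the other genotypes, which overlapped. The difference from WT was -3.01 (SE 0.51, 95% interval -4.16 to -1.86, adjusted p = 0.0149). With the spike-in level as a block it was 3.77-fold (adjusted p = 0.269). The call was lost without Casp1-/- replicate 2 or without Casp1-/- replicate 3.

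Blnk, the adaptor between the B cell receptor and its enzymes, was above background on all arrays. It read 10.19, 10.49, 11.72 and 11.16 in WT, 11.40, 11.06 and 10.78 in ASC-/-, and 8.80, 8.16 and 9.07 in Casp1-/-. Again the Casp1-/- arrays were the lowest 3 and the other genotypes overlapped. The difference from WT was -2.21 (SE 0.36, 95% interval -3.02 to -1.40, adjusted p = 0.0136). It was 2.85-fold with the spike-in block (adjusted p = 0.234), and leaving out Casp1-/- replicate 2 ended the call.

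Tnfrsf13b, which encodes TACI, a receptor of B and plasma cells for the survival factors BAFF and APRIL, read 5.89, 6.27, 6.80 and 6.31 in WT, 6.37, 6.67 and 6.26 in ASC-/-, and 5.29, 5.64 and 5.52 in Casp1-/-. The Casp1-/- arrays were the lowest 3, and WT and ASC-/- overlapped. The difference of -0.83 (SE 0.20, 95% interval -1.27 to -0.39, adjusted p = 0.0367) was 1.32-fold with the block (adjusted p = 0.588). With each of the 10 arrays left out in turn, the call stood in 2 cases, without WT replicate 1 and without WT replicate 3, and was lost in the rest. Cd22, a sialic acid receptor that restrains the B cell receptor, was also lower on each Casp1-/- array, but did not pass. It read 6.60, 6.59, 7.74 and 7.14 in WT, 7.24, 6.91 and 6.69 in ASC-/- and 6.18, 5.93 and 6.07 in Casp1-/-. Casp1-/- did not overlap WT, and the difference from WT was -0.96 (SE 0.27, adjusted p = 0.0557). Its other probe set differed by -0.36.

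**Figure D2:**
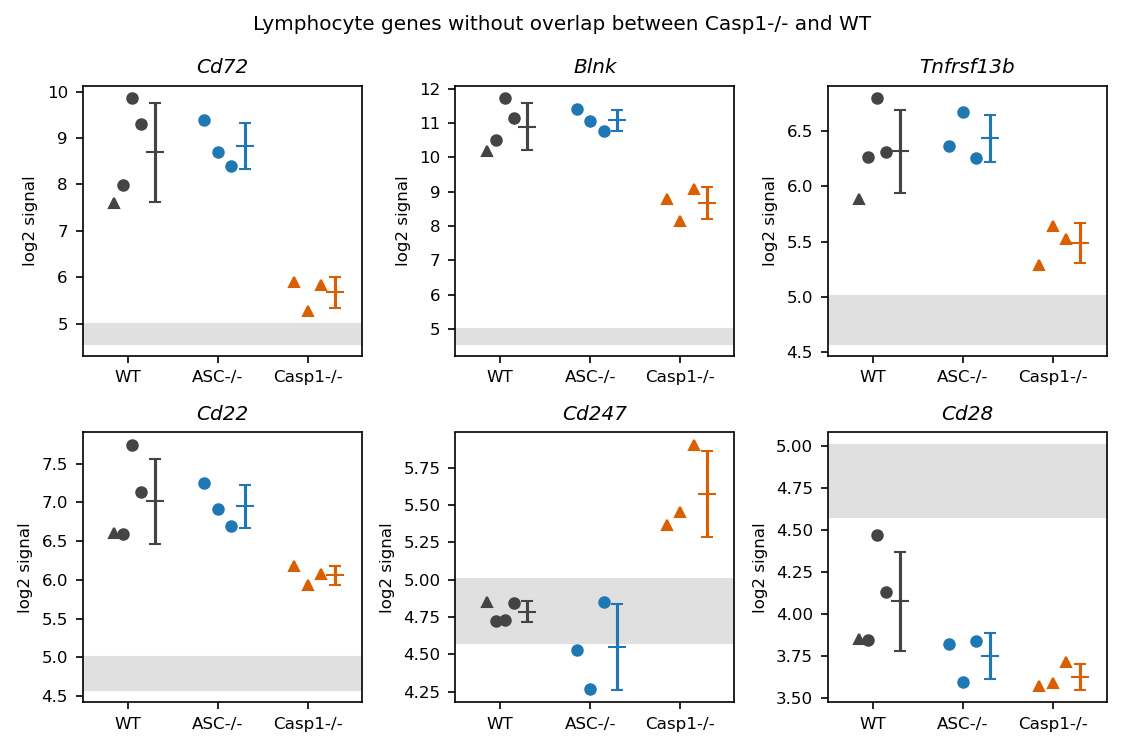
Log2 signal of Cd72, Blnk, Tnfrsf13b, Cd22, Cd247 and Cd28 on each array by genotype; triangles are the 4 arrays with high spike-in signal, circles the 6 with low, bars the mean and SD, and the grey band the range of the highest background control. The genes shown were taken from those without overlap between Casp1-/- and WT. By that choice WT replicate 1, the triangle among the WT arrays, lies on the WT side of every Casp1-/- array.

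The stretches just upstream of the 3 genes that were lower in Casp1-/- fat are printed because the genes were lower together. They are the 250 bases before the start site, from RefSeq on GRCm38.p6, 5′ to 3′ on the strand of the gene, with matches in capitals. Cd72 is at chr4:43454627-43454876 on the minus strand, Blnk at chr19:40994222-40994471 on the minus strand and Tnfrsf13b at chr11:61126505-61126754 on the plus strand. The motifs searched on both strands were GAGGAA, the core bound by the myeloid and B cell factor PU.1, its longer form GAGGAAGT, which contains the core, and the octamer ATGCAAAT.
Cd72: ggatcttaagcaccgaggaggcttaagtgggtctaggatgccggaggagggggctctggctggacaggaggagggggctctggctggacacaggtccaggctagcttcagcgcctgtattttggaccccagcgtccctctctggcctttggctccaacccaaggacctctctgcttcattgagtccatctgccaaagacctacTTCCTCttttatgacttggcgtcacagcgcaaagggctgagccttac
Blnk: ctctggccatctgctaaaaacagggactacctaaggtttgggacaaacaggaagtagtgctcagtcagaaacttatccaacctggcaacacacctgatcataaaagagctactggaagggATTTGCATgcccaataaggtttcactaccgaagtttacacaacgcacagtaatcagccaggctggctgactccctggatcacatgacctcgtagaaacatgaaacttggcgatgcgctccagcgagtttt
Tnfrsf13b: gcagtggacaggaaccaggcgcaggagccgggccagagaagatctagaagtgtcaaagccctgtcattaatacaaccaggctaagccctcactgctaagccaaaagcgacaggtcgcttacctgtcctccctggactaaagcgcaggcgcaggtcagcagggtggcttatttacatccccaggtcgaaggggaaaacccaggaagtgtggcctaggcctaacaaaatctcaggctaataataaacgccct

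The Cd72 window holds the core 47 bases before the start, on the opposite strand and so printed as TTCCTC, within a match to the longer form. The Blnk window holds the octamer 130 bases before the start, printed as ATTTGCAT. The Tnfrsf13b window holds none of the 3, which says only that these letters are not there. Over 32851 such windows, 23.3% hold GAGGAA, 2.44% GAGGAAGT and 1.60% ATGCAAAT, and of the 22 lymphocyte genes found there, 8, 2 and 1 do. Spi1, the gene of PU.1, was 4.94-fold lower in Casp1-/- fat (difference -2.30, adjusted p = 0.0252, and 0.465 with the spike-in block). Its part in the lower B cell genes was not tested.

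Macrophage and general leukocyte genes were lower in the same arrays. Over all 17097 genes, 660 were lower past the threshold in Casp1-/- fat and 737 higher. Of 19 macrophage markers measured, 14 were lower past the threshold and none higher, with a median difference of -1.32. Among them were Adgre1, a widely used macrophage surface marker (3.92-fold lower), and Cd68 (4.33-fold lower). The mean of the list per array lay between 9.86 and 11.21 in WT, 10.46 and 10.88 in ASC-/- and 9.10 and 9.34 in Casp1-/-. With the spike-in block none of the 19 passed and the median was -0.58. Of 11 pan-leukocyte genes 6 were lower, among them Ptprc, the gene of CD45 (2.5-fold lower, adjusted p = 0.0350, and 0.579 with the block).

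Over the 7 WT and ASC-/- arrays, where genotype separates neither gene, Cd72 followed the macrophage mean closely. Pearson's r was 0.988 (exact permutation p = 1.98e-04, the smallest 7 arrays can give, and 0.00123 adjusted over 10 pairs chosen after the values were seen) and Spearman's rho was 1 (exact p = 3.97e-04, adjusted 0.00132). Without WT replicates 1 and 3 it was 0.996. Cd72 and Blnk followed each other (r = 0.985, exact p = 3.97e-04, adjusted 0.00123; rho = 1, exact p = 3.97e-04), with r = 0.960 without the same arrays. For Cd22 and the macrophage mean r was 0.923 (exact p = 0.00337, adjusted 0.00562; rho = 0.964, exact p = 0.00278), and 0.865 without the arrays farthest from its median. For Tnfrsf13b r was 0.825 (exact p = 0.0276, adjusted 0.0345; rho = 0.857, exact p = 0.0238) but 0.22 without WT replicates 1 and 3, so that relation rests on those arrays. The part of macrophage number in the lower B cell genes was not tested.

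Ms4a1 and Cd79b, which are more restricted to B cells, gave no call. Ms4a1, the gene of CD20, read 6.25, 5.34, 4.99 and 6.03 in WT, 5.26, 4.32 and 6.11 in ASC-/-, and 6.56, 6.36 and 4.69 in Casp1-/-. All 3 genotypes overlapped, and its difference between Casp1-/- and WT was 0.22 with an adjusted p of 0.836. Cd79b, a chain of the B cell receptor, read 6.02, 5.58, 5.24 and 5.77 in WT, 5.50, 5.12 and 5.67 in ASC-/-, and 6.02, 5.76 and 4.58 in Casp1-/-. The high arrays of one gene were the high arrays of the other: WT replicates 1 and 4, ASC-/- replicate 3 and Casp1-/- replicates 1 and 2 were high, and ASC-/- replicate 2 and Casp1-/- replicate 3 were low in both.

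This pattern between mice was shared by some B cell genes and not by others. Over the 10 arrays Ms4a1 and Cd79b correlated at r = 0.873 (permutation p = 4.9e-04, adjusted 0.00123; rho = 0.903, permutation p = 9.2e-04), at 0.906 without ASC-/- replicate 2 and Casp1-/- replicate 3, and at 0.942 within the 6 arrays of low spike-in signal. The other probe set of Ms4a1 gave r = 0.929 with the first (permutation p = 3.4e-04, adjusted 0.00123; rho = 0.927, permutation p = 3.6e-04). The kinase Blk gave r = 0.708 (permutation p = 0.0155, adjusted 0.0221; rho = 0.697, permutation p = 0.0308), though it was above background on no array. Among 166 genes of the other lists, 2 had a correlation with Ms4a1 past an adjusted p of 0.05. Pou2af1, a co-activator of B cell transcription, gave r = 0.953 (permutation p = 1.2e-04, adjusted 0.0199; rho = 0.842, permutation p = 0.00354, adjusted 0.294), and 0.895 without the same 2 arrays. Bank1, a scaffold of B cell receptor signalling, gave r = 0.912 (permutation p = 2.5e-04, adjusted 0.0207; rho = 0.952, permutation p = 1.6e-04, adjusted 0.0266), and 0.875 without them. Next came Lta (r = 0.799, permutation p = 0.00607, adjusted 0.336; rho = 0.806, permutation p = 0.00705) and Cxcl13, the chemokine of B cell follicles (r = 0.766, permutation p = 0.00999, adjusted 0.415; rho = 0.709, permutation p = 0.0259). Without the same arrays these gave 0.645 and 0.461. Lta was above background on no array. Pou2af1 and Bank1 belong to a list of 23 further genes of B cell receptor signalling and the B lineage. Over the rest of that list r ran from -0.586 to 0.701, with none past an adjusted p of 0.05. The mean of 10 lymph node and lymphoid tissue genes was lowest on ASC-/- replicate 2 (5.89) and Casp1-/- replicate 3 (5.95). The part of lymphoid tissue in this pattern was not tested.

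The macrophage mean gave no positive relation with Ms4a1 over the 10 arrays (r = -0.405, permutation p = 0.240, adjusted 0.240; rho = -0.479, permutation p = 0.166). Within the 6 arrays of low spike-in signal r was -0.177. Without the 2 arrays farthest from the median of Ms4a1, ASC-/- replicate 2 and Casp1-/- replicate 3, it was -0.789. Neither did Jchain give a relation past 0.05 (r = 0.445, permutation p = 0.199, adjusted 0.222; rho = 0.236, permutation p = 0.515), and without those arrays r was -0.318.

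**Figure D3:**
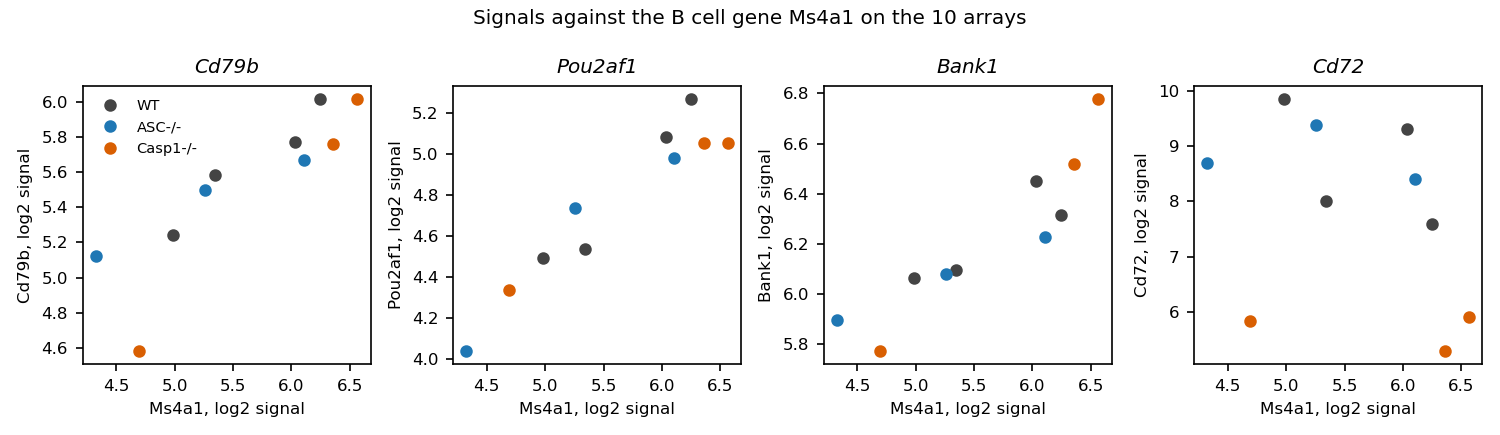
Log2 signals of Cd79b, Pou2af1, Bank1 and Cd72 (y axes) against Ms4a1 (x axis), 1 point per array, coloured by genotype. Cd79b, Pou2af1 and Bank1 rise with Ms4a1 across genotypes (r = 0.873, 0.953 and 0.912), while in the panel of Cd72 the 3 Casp1-/- arrays sit lowest at both high and low Ms4a1.

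The other B cell genes were dim. Cd79a lay between 3.84 and 4.45, Pax5 between 3.23 and 3.45, Fcrla between 3.40 and 3.86, Tnfrsf13c, the BAFF receptor, between 3.34 and 3.78 and Blk between 3.42 and 4.30. None passed in any comparison. Among 23 further genes of B cell receptor signalling and the B lineage, 5 were lower in Casp1-/- fat past the threshold and none higher. Of all genes 8.17% passed in either direction. Among the 5 were the tetraspanin Cd37 (3.44-fold lower), the signalling adaptor Pik3ap1 (6.90 in WT and 4.91, within background, in Casp1-/-) and the phosphatase Ptpn6 (2.70-fold lower). None of the 23 passed with the spike-in block. Of the 5 lower genes, at least Spi1, Ptpn6 and Cd37 are used by myeloid cells as well.

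Cd247 was higher in Casp1-/- fat. It read 4.85, 4.72, 4.73 and 4.84 in WT, 4.53, 4.27 and 4.85 in ASC-/-, and 5.37, 5.45 and 5.91 in Casp1-/-. The Casp1-/- arrays were the highest 3 and all were above background, against 1 of the other 7. The difference from WT was 0.79 (SE 0.16, 95% interval 0.44 to 1.14, adjusted p = 0.0226). It was 0.73 with the spike-in block (adjusted p = 0.281), and the call was lost without WT replicate 4, Casp1-/- replicate 2 or Casp1-/- replicate 3. The gene has 3 other probe sets, which differed by 0.17, 0.095 and 0.065. The 1 probe set therefore does not speak for the others.

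No other gene of the T cell receptor complex passed. Cd3d averaged 4.88 ± 0.32 (SD, n = 3) in Casp1-/- and 4.90 ± 0.38 (n = 4) in WT, and Cd3e 4.76 ± 0.19 and 4.69 ± 0.11. Cd4, Cd8a and Cd8b1 stayed between 3.19 and 4.15 in both genotypes. Skap1, an adaptor for T cell adhesion, read 4.04, 4.28 and 4.01 in Casp1-/- and 4.09, 3.71, 3.52 and 3.67 in WT, a difference of 0.36 that did not pass (adjusted p = 0.127). Cd28 read 3.57, 3.59 and 3.71 in Casp1-/- and 3.85, 3.85, 4.47 and 4.13 in WT, a difference of -0.45 that did not pass (adjusted p = 0.0912), and its other probe set differed by -0.20. Zap70 lay between 3.35 and 3.75 over all 10 arrays, Icos between 3.5 and 4.12, and Foxp3 between 3.17 and 3.94, with no call in any comparison.

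Among 23 other genes of T cell receptor signalling, 3 were lower in Casp1-/- fat and 1 higher, beside the 8.17% of all genes that passed. The phosphatase Ptpn22 was 2.94-fold lower (adjusted p = 0.0110, and 0.133 with the spike-in block), Ptprc was lower as given above, and Vav1, an exchange factor of many leukocytes, differed by -1.56, with a Casp1-/- mean of 4.41 within background (adjusted p = 0.0407, and 0.669 with the block). Ctla4, an inhibitory receptor, was higher by 0.35 (adjusted p = 0.0490, and 0.430 with the block) and above background on no array. Among 31 T lineage factors and surface genes 1 was higher. That was Klrg1, a receptor of effector T and NK cells and of some resident lymphoid cells. It averaged 5.65 ± 0.36 (n = 3) in Casp1-/- and 4.64 ± 0.18 (n = 4) in WT, a difference of 1.01 (SE 0.17, adjusted p = 0.0137, and 0.202 with the block). Of the 31, 23 were above background on no array.

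**Figure D4:**
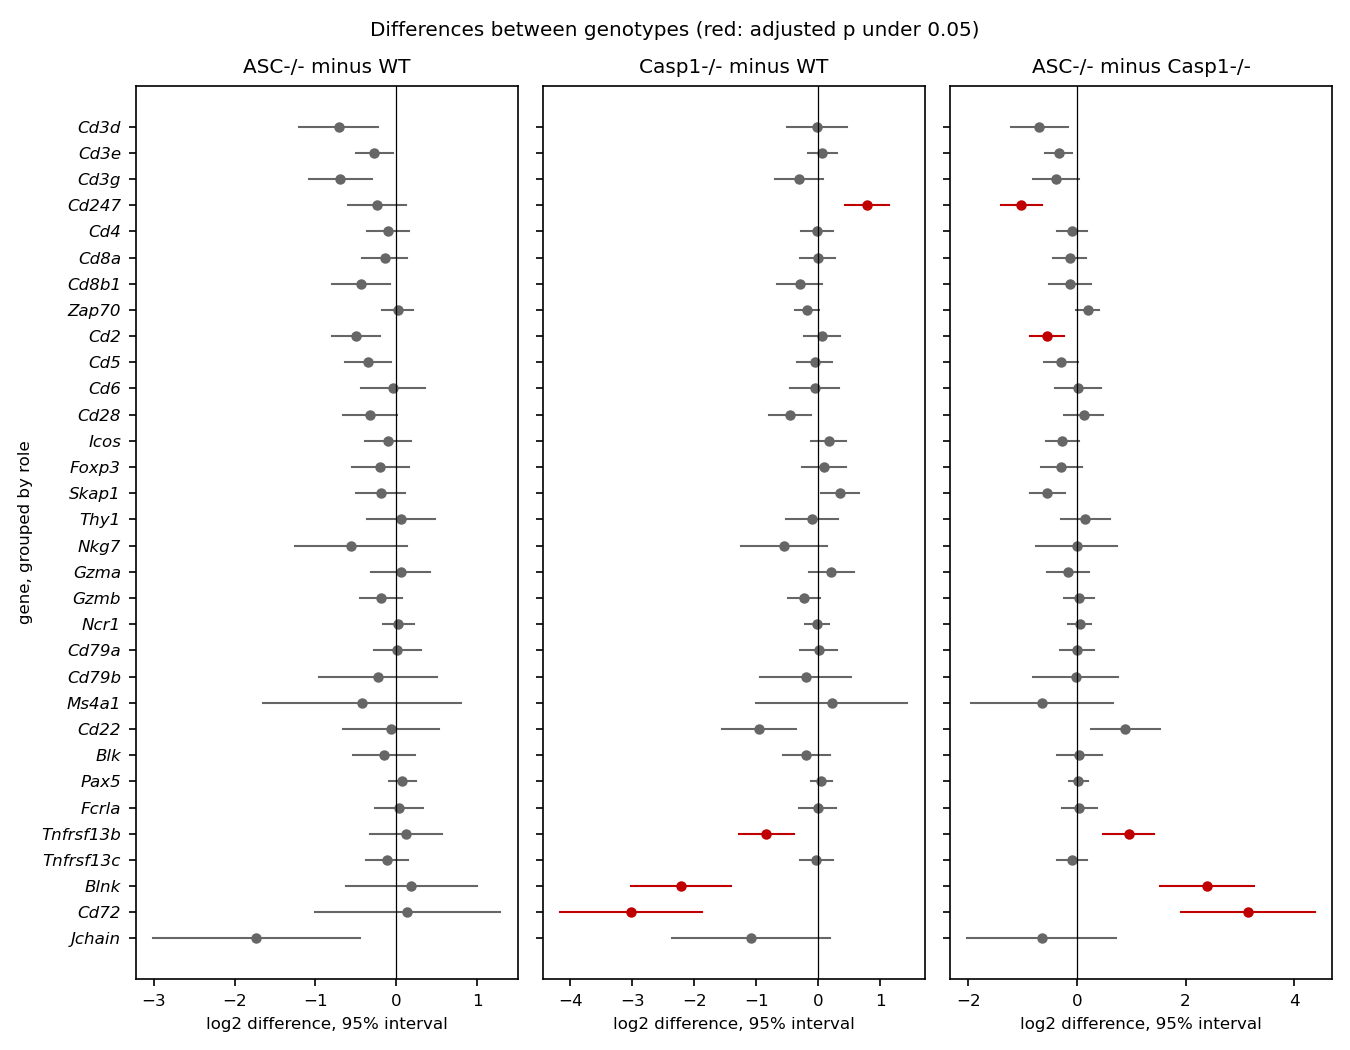
Difference in log2 signal for each of the 32 genes in the 3 comparisons, with 95% intervals; red marks an adjusted p under 0.05 and the vertical line is at 0. Cd72 and Blnk stand farthest from 0 in both comparisons with Casp1-/-, and no gene is red in ASC-/- against WT.

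In ASC-/- fat no lymphocyte gene passed the threshold against WT, and most T cell genes among the 32 lay on the lower side. All 7 genes of the T cell receptor complex and co-receptors lay below 0 (median -0.27), as did 7 of 9 other T cell genes (median -0.19), 2 of 4 NK and cytotoxic genes (median -0.08) and 5 of 11 B cell genes (median 0.01). The median of the 32 was -0.14, beside 0.01 for all genes, of which 48.3% lay below 0. On 7 of the 32 genes (21.9%) every ASC-/- array was below every WT array, beside 1.86% of all genes, and on none was every ASC-/- array higher, beside 1.33%. Those 7 were Cd3d, Cd3e, Cd3g, Cd8b1, Cd2, Cd28 and Jchain. Of these, Cd2 and Jchain were above the highest control on all arrays, and the ASC-/- arrays of the other 5 were all below it. Of the 32, 7 had an unadjusted limma p under 0.05 (Cd5 in place of Cd28, the rest as above), beside 342 of all 17097 genes, and 0 had an adjusted one. Over all genes 6 passed, or 0.0351%.

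Cd3d, the delta chain, read 4.74, 4.48, 4.99 and 5.38 in WT, 4.37, 4.02 and 4.17 in ASC-/- and 4.68, 4.72 and 5.25 in Casp1-/-. The 3 ASC-/- arrays were the lowest 3 of the 10. The difference from WT was -0.71 (SE 0.22, 95% interval -1.20 to -0.23, limma, adjusted p = 1.00). Cd3g, the gamma chain, read 3.95, 4.19, 4.44 and 4.77 in WT, 3.63, 3.73 and 3.58 in ASC-/- and 3.91, 3.96 and 4.21 in Casp1-/-. Again the ASC-/- arrays were the lowest 3, all within background. The difference was -0.69 (SE 0.17, 95% interval -1.08 to -0.30, limma, adjusted p = 1.00). Cd3e, the epsilon chain, differed by -0.27 (SE 0.10, limma, adjusted p = 1.00), from 4.69 ± 0.11 in WT to 4.42 ± 0.04 in ASC-/-. Cd8b1, the beta chain of CD8, read 3.38, 3.60, 3.43 and 4.09 in WT and 3.20, 3.12 and 3.26 in ASC-/-, a difference of -0.43 (limma, adjusted p = 1.00).

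Cd2 was above background on all arrays. It read 5.46, 5.37, 5.35 and 5.78 in WT, 4.79, 5.12 and 5.06 in ASC-/- and 5.45, 5.70 and 5.49 in Casp1-/-. The ASC-/- arrays were the lowest 3, and WT and Casp1-/- overlapped. The difference from WT was -0.50 (SE 0.13, 95% interval -0.79 to -0.21, limma, adjusted p = 1.00), and -0.51 with the spike-in block. Cd5, an inhibitory T cell receptor partner, differed by -0.35 (limma, adjusted p = 1.00), with all values between 3.05 and 3.70. Cd28 averaged 3.75 ± 0.14 in ASC-/- and 4.07 ± 0.29 in WT.

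**Figure D5:**
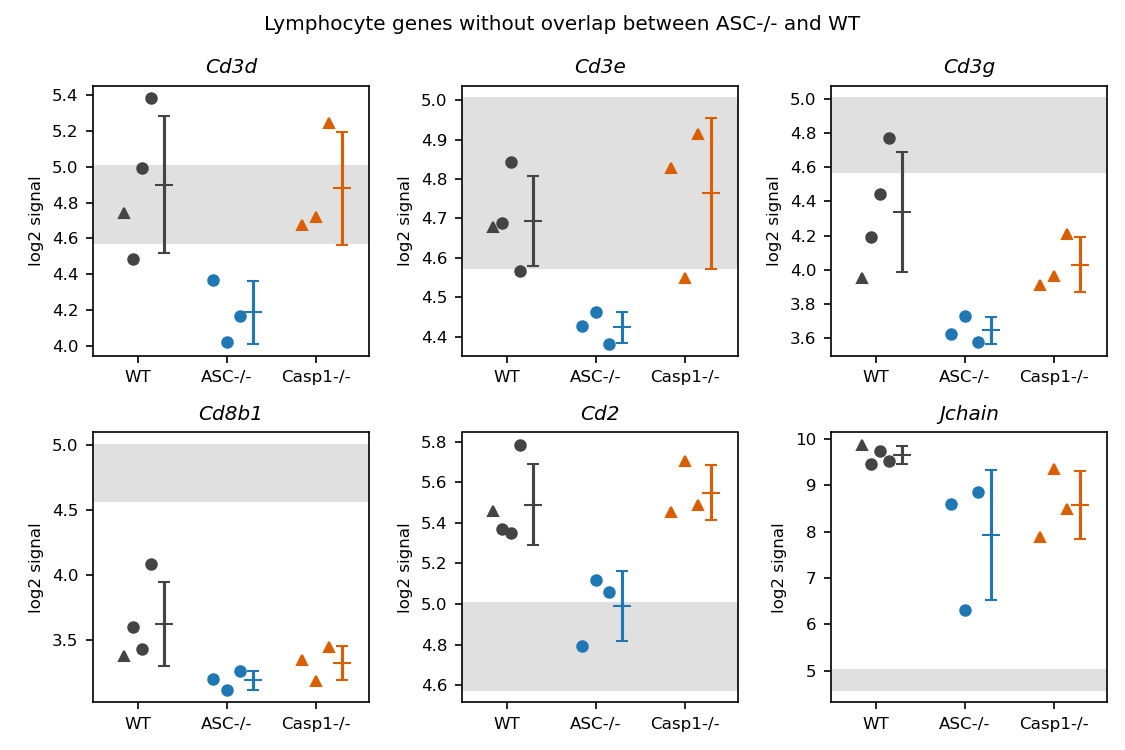
Log2 signal of Cd3d, Cd3e, Cd3g, Cd2, Cd8b1 and Jchain on each array by genotype, with mean and SD; the grey band is the range of the highest background control, triangles the arrays of high spike-in signal. The genes shown were taken from those without overlap between ASC-/- and WT, so every ASC-/- point lies below every WT point. Most T cell points lie in or below the band.

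Cd3d and Cd3g lie back to back on chromosome 9, with start sites 1355 bases apart, and their signals moved together over the 10 arrays (r = 0.854, permutation p = 0.00168, adjusted 0.00336; rho = 0.867, permutation p = 0.00211). Without WT replicate 4 and ASC-/- replicate 2, r was 0.776, and within the 6 arrays of low spike-in signal it was 0.935. Their upstream windows are printed for that reason, from the same table and with the same marks. Cd3d is at chr9:44981536-44981785 on the plus strand and Cd3g at chr9:44980432-44980681 on the minus strand.
Cd3d: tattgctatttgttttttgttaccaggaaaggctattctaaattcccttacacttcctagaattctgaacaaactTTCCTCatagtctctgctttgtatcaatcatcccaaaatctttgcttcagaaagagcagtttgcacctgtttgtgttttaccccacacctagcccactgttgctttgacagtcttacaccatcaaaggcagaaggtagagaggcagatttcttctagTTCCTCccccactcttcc
Cd3g: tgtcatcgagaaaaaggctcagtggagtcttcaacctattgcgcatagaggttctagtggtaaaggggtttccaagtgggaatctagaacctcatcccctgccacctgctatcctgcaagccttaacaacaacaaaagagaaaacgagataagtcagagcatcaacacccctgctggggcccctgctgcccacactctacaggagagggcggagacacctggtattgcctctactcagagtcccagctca

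The Cd3d window holds GAGGAA on the opposite strand 175 and 18 bases before the start, and the Cd3g window holds none of the 3 motifs.

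No macrophage or pan-leukocyte gene passed in ASC-/- fat, nor did a gene of the other lists, and the median difference was 0.13 for the macrophage markers and 0.10 for the pan-leukocyte genes. Among 31 T lineage genes 22 lay below 0, with a median of -0.12. The 23 other genes of T cell receptor signalling did not lean this way: 8 lay below 0, with a median of 0.04. One further gene is given because it bears on lymphocytes, and it was chosen after its values were seen. Dock2, an exchange factor that lymphocytes need for migration, read 8.84, 9.40, 10.34 and 9.73 in WT, 6.91, 6.87 and 6.98 in ASC-/- and 8.22, 7.88 and 8.06 in Casp1-/-, with a difference from WT of -2.66 in ASC-/- (adjusted p = 0.0147, and 0.00220 with the spike-in block) and of -1.53 in Casp1-/- (adjusted p = 0.0191, and 0.331 with the block). Its part in the T cell signals was not tested.

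Jchain, which joins the units of secreted IgM and IgA, was above background on all arrays. It read 9.88, 9.47, 9.74 and 9.54 in WT, 8.60, 6.30 and 8.86 in ASC-/- and 7.88, 9.35 and 8.50 in Casp1-/-. Every WT array was above every array of both null genotypes, and ASC-/- replicate 2 was far below the rest. Neither difference passed. It was -1.73 in ASC-/- (SE 0.57, 95% interval -3.01 to -0.45, limma, adjusted p = 1.00), and -0.92 without ASC-/- replicate 2. In Casp1-/- it was -1.08 (95% interval -2.36 to 0.20, adjusted p = 0.252). The 4 WT arrays serve both comparisons. Of 10 plasma cell genes, Creld2, a protein of the endoplasmic reticulum, was lower in Casp1-/- fat (difference -0.67, adjusted p = 0.0211, and 0.363 with the spike-in block) and none was higher, beside 8.17% of all genes past the threshold.

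NK and cytotoxic genes gave no call. Nkg7, a protein of cytotoxic granules, read 4.43, 4.87, 5.31 and 5.64 in WT, 4.37, 4.44 and 4.70 in ASC-/- and 3.89, 4.75 and 4.90 in Casp1-/-, with overlap between all 3 genotypes and differences from WT of -0.56 and -0.55. Gzma lay between 4.96 and 5.78 on all arrays, Gzmb between 3.88 and 4.37 and Ncr1 between 3.19 and 3.42. Of 21 further NK and cytotoxic genes 0 passed in any comparison, and 13 were above background on no array. Thy1 lay between 7.46 and 8.36 without a call.

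Set against each other, ASC-/- and Casp1-/- fat differed in 5 of 32 genes (15.6%), beside 7.39% of all genes. Cd72 was 8.89-fold higher in ASC-/- (difference 3.15, SE 0.55, adjusted p = 0.0152), Blnk 5.29-fold (2.40, SE 0.39, adjusted p = 0.0129) and Tnfrsf13b 1.93-fold (0.95, SE 0.21, adjusted p = 0.0303). Cd247 was lower in ASC-/- (difference -1.03, SE 0.17, adjusted p = 0.0133), as was Cd2 (difference -0.56, SE 0.14, 95% interval -0.87 to -0.25, adjusted p = 0.0430). With the spike-in block none of the 5 passed. The 2 genotypes lie wholly in different spike-in sets. The calls of Cd72 and Blnk were lost without ASC-/- replicate 1, ASC-/- replicate 2 or Casp1-/- replicate 2, as was that of Cd247. Those of Tnfrsf13b and Cd2 were lost without any 1 of the 6 null arrays, and that of Cd2 also without WT replicate 2. Of all genes 57.3% lay below 0 in this comparison, which shares its 3 ASC-/- arrays with the comparison with WT. All 7 genes of the T cell receptor complex and co-receptors were below 0 (median -0.34), among them Cd3d at -0.69 (adjusted p = 0.0979) and Cd3e at -0.34 (adjusted p = 0.0892). Both missed the threshold, as did Skap1 at -0.55 (adjusted p = 0.0517) and Cd22 at 0.89 (adjusted p = 0.0875).

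Separation of arrays was common between these genotypes over all genes. Of the 32, 8 (25%) had every ASC-/- array below every Casp1-/- array, beside 23.1% of all genes, and 4 (12.5%) the reverse, beside 17.3%. In Casp1-/- against WT, 6 of the 32 (18.8%) had every Casp1-/- array lower, beside 9.60% of all genes: Cd28, Cd22, Jchain, Tnfrsf13b, Blnk and Cd72. One (Cd247, 3.13%) had every array higher, beside 15.1%. Among the signalling genes, Lat, an adaptor that T cells, NK cells and mast cells share, averaged 6.17 ± 0.42 in ASC-/- and 4.33 ± 0.36, within background, in Casp1-/- (adjusted p = 0.0145, and 0.580 with the spike-in block). Klrg1 was lower in ASC-/- (difference -1.19, adjusted p = 0.0115, and 0.335 with the block).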

How the data were processed

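The log2 signals were deposited by the authors as 1 table for 10 arrays (Affymetrix HT_MG-430 PM), made with RMA per the submitters' processing notes. Per the labels, 1 array was used per mouse. RMA subtracts background, equalises the distributions of the arrays and summarises the probes of each probe set, which compresses small changes near background. The number of arrays limits the precision. The table holds 45141 probe sets, of which 104 are controls, 28898 were paired with 1 symbol, 551 with several and 15692 with none. Each of 17097 genes was represented by its brightest probe set on average, without a filter on dim genes.

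The model, fitted to all genes by limma (version 3.58.1, under R 4.3.3), had a mean for each genotype, 7 residual and 2.43 prior degrees of freedom and Benjamini-Hochberg adjustment over all genes at 0.05, two-sided. On simulated data for Casp1-/- against WT over 17097 genes, with independent noise, the fit found 76 of 100 genes shifted by 1 on the log2 scale and 92 of 100 shifted by 2, and called 13 unchanged genes. SD is over arrays and SE is of the fitted difference. Permutation tests of correlations are two-sided.

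The members and the lists of other genes were chosen with earlier results of these data known. All members are named, and of each other list up to 4 genes past the threshold with the largest differences, apart from genes said to be chosen after their values were seen. Genes named for their likeness to Ms4a1 are the 4 with the highest correlation. The alternatives were array weights, quantile normalization, median centring, a filter on dim genes, averaged probe sets, every probe set as its own row, trended and robust variance moderation, a fit to the compared groups alone, blocks for replicate number or spike-in level, actin 3' minus 5' signal as covariate, and each array left out. The control medians were an alternative background, and the second-highest control was added after the data had been seen. Promoter windows come from RefSeq on GRCm38.p6. No genome build for the probe sets is named in the sources used here.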

Additional observations from a re-analysis of the deposited data

Results flagged for a closer look

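Cd6, a T cell surface receptor that tunes adhesion and activation, had 1 WT array apart from the others. WT replicate 1 read 3.80 and the other 3 WT arrays read between 4.25 and 4.33, so the gap to the nearest was 0.846 of the whole range, past Dixon's critical value for 4 arrays. None of these values is above the highest background control. Of the 32 genes tested in this way 1 stood out, and chance alone marks about 1 in 20. The ASC-/- arrays read 3.99, 4.40 and 3.99 and the Casp1-/- arrays 4.44, 3.98 and 3.92, with no call in any comparison.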

How the results depend on the processing

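No called gene changed direction under any alternative. In ASC-/- against WT, 0 of 32 genes passed as reported and 1 with the actin covariate (Cd3g, -0.85, adjusted p = 0.0400), with 0 under the other settings and 0 to 0 when arrays were left out. In Casp1-/- against WT, 4 passed as reported, 7 with array weights, 0 with the spike-in level as a block, and 0 to 7 with 1 array left out: 0 without Casp1-/- replicate 2, 1 without Casp1-/- replicate 3, 2 without WT replicate 4 and 7 without WT replicate 1. In ASC-/- against Casp1-/-, 5 passed as reported, 10 with array weights, 9 with only the compared groups, 3 with the actin covariate, 0 with the spike-in block, and 0 to 7 with 1 array left out, with 0 without ASC-/- replicate 1, ASC-/- replicate 2 or Casp1-/- replicate 2. With the replicate number as a block, 0 of the 32 genes passed in each of the 3 comparisons. The deviations of arrays with the same number correlated at -0.26 to 0.19 over all genes. That range gives no sign that the numbers pair the mice, but so few arrays cannot exclude it. With the replicate block 9 of all genes passed in Casp1-/- against WT, beside 1397 as reported. The count over all genes was 2998 there with array weights, 64 without Casp1-/- replicate 2 and 3018 without WT replicate 1. In ASC-/- against Casp1-/- it was 1264 as reported, 3428 with array weights and 47 without ASC-/- replicate 1. With the spike-in block it fell in both comparisons. In these settings the counts over the 32 genes and over all genes moved the same way. Genes of the other lists and Dock2 gave 67 calls over the 3 comparisons, which stood in 1 to 9 of the 10 fits with an array left out, and 1 of them (Dock2 in ASC-/- against WT) stood with the spike-in block. The count above background on all arrays was 8 against the highest control, 19 against the second-highest, chosen after seeing the data, and 31 against the median of the controls. Against the highest control 18 of 32 genes were above on no array, and against the second-highest 2 of 32.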

Other observations

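One probe set of Icos gave calls that the gene's main probe set did not. The dimmest of the Icos probe sets was higher in Casp1-/- than in WT by 0.41 (limma, adjusted p = 0.0392 over all probe sets, and 0.153 with the spike-in level as a block, a fit added after the data had been seen) and differed between ASC-/- and Casp1-/- by -0.44 (adjusted p = 0.0388, and 0.268 with the block), while the other Icos probe sets differed from WT by 0.17 and 0.08. Itgae, an integrin of resident T cells and of some dendritic cells, was higher in Casp1-/- fat, at 4.56 ± 0.25 (n = 3) against 4.02 ± 0.14 in WT (n = 4, adjusted p = 0.0384), and lost the call with the spike-in level as a block (adjusted p = 0.223). It was above background on 1 array. Tnfrsf17, the plasma cell receptor BCMA, was lower in ASC-/- than in Casp1-/- fat (3.49 ± 0.06 against 4.00 ± 0.24, adjusted p = 0.0346, and 0.535 with the block), with all values within background.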
